A study of Rattus norvegicus with 17 samples.

Results

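The Notch genes described here are the receptors Notch1, Notch2 and Notch3, the ligands Jag1 and Jag2, the Notch ligand homologue Dlk1, the sugar transferase Rfng, and the target genes Hes1, Hey1 and Hey2. Every probe set that the array platform assigns to one of these 10 genes alone was taken, whatever its value, which gave 12 of the 31042 probe sets that are not manufacturer controls, and 10 of the 14217 genes named by a probe set of their own. The samples were gubernacula, the cords that anchor the fetal testis during its descent, from Long Evans rat fetuses of gestational day 17. Each replicate was 2 gubernaculum bulbs kept as explants for 24 h without hormone and then for 24 h in medium with no Insl3 (control, 6 arrays), with 10 nM Insl3 (3 arrays compared) or with 100 nM Insl3 (6 arrays). Insl3 is the insulin-like peptide hormone of the fetal testis that acts on the gubernaculum. The medium of all groups held charcoal-stripped serum and an insulin supplement. A further 2 arrays at 10 nM, replicates 4 and 5, were labelled outliers by the authors and entered none of the main comparisons. Their values are given for some genes only.

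Notch receptors are membrane proteins that are cut when a ligand on a neighbouring cell binds them, and the released intracellular part joins the DNA-binding protein RBPJ in the nucleus. Genes of the Hes and Hey families, which encode transcriptional repressors, are the best known direct targets. Fringe enzymes such as Rfng add sugars to the receptors in the Golgi and alter which ligands they answer to. The pathway is known for its part in muscle precursors and in blood vessels, and both tissues lie in the gubernaculum.

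The target genes Hes1 and Hey2 carry the letters of the RBPJ binding core close to their start, and their promoters are shown for that reason. The 250 bases before the gene start, from RefSeq on build GRCr8, were searched on both strands for TGGGAA, which 22.1% of 33469 promoters of the same length hold at least once and 2.71% hold at least 2 times. Of the 9 members with an entry, Hes1 and Hey2 held it, each at 2 places. Holding it at least once, in 2 of 9 members, was near the share over all promoters. Hey1, the member without an entry, was not searched. Capitals mark TGGGAA or its reverse complement. The Hes1 window lies at chr11:84213046-84213295 on the minus strand and the Hey2 window at chr1:28640850-28641099 on the plus strand.
Hes1: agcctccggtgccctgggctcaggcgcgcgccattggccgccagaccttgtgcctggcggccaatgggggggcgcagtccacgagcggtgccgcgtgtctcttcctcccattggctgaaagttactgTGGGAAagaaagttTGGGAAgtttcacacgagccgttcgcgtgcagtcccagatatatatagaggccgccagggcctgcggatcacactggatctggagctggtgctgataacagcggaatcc
Hey2: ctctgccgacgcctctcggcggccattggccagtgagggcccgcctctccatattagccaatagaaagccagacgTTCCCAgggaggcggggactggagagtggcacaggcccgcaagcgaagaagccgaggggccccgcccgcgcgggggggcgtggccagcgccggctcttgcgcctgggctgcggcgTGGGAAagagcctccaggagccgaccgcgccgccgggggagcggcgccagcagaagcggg
The longer form GTGGGAA, present in 5.27% of promoters, overlaps 1 of the marked places in each. A match in these letters is a description of the sequence and does not show that RBPJ binds there.

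Values are log2 intensities after GCRMA, a background correction and normalization for Affymetrix arrays, on which the lowest possible value was 2.11. Between 32.0% and 33.7% of probe sets were at this floor in each compared array. The compared arrays had medians of 4.29 to 4.39 and correlated with each other at 0.978 to 0.996. The number of arrays limits the precision. The labels call the replicates biological without saying whether they came from separate litters, and the tests weigh each difference against the scatter among these explants only. In whole explants, fewer cells of a type and less RNA per cell cannot be told apart. Within the groups, the leading component of the array values (27.3% of their variance) put replicates 1, 2 and 6 on one side and replicates 3, 4 and 5 on the other, a division that no label names.

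At 100 nM Insl3, 2 of the 8 member genes that could be tested passed the test, Hey2 and Rfng, both higher than in control. No member gene passed at 10 nM against control or at 100 nM against 10 nM. Across all 10665 genes tested the same way, 12.1% passed at 100 nM against control, 8.15% being higher and 3.98% lower, and with so few members 2 of 8 is given as a description beside that background. At 10 nM against control 8.67% of genes passed, and at 100 nM against 10 nM 0.778%. The test was limma's moderated test with Benjamini-Hochberg adjustment over all 18938 tested probe sets and a threshold of 0.05, and a gene was represented by its probe set with the highest mean. At an unadjusted p under 0.05, limma gave 2 of 8 members at 100 nM against control (Rfng and Hey2), beside 27.6% of all genes. It gave 1 of 8 at 10 nM against control (Jag1), beside 21.7% of all genes. At 100 nM against 10 nM it gave 1 of 8 (Hey1), beside 10.0% of all genes. The median log2 change of the 8 member genes was 0.15 at 100 nM and 0.16 at 10 nM, beside 0.02 and 0.06 over all tested genes. Both comparisons share the same control arrays.

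**Figure D1:**
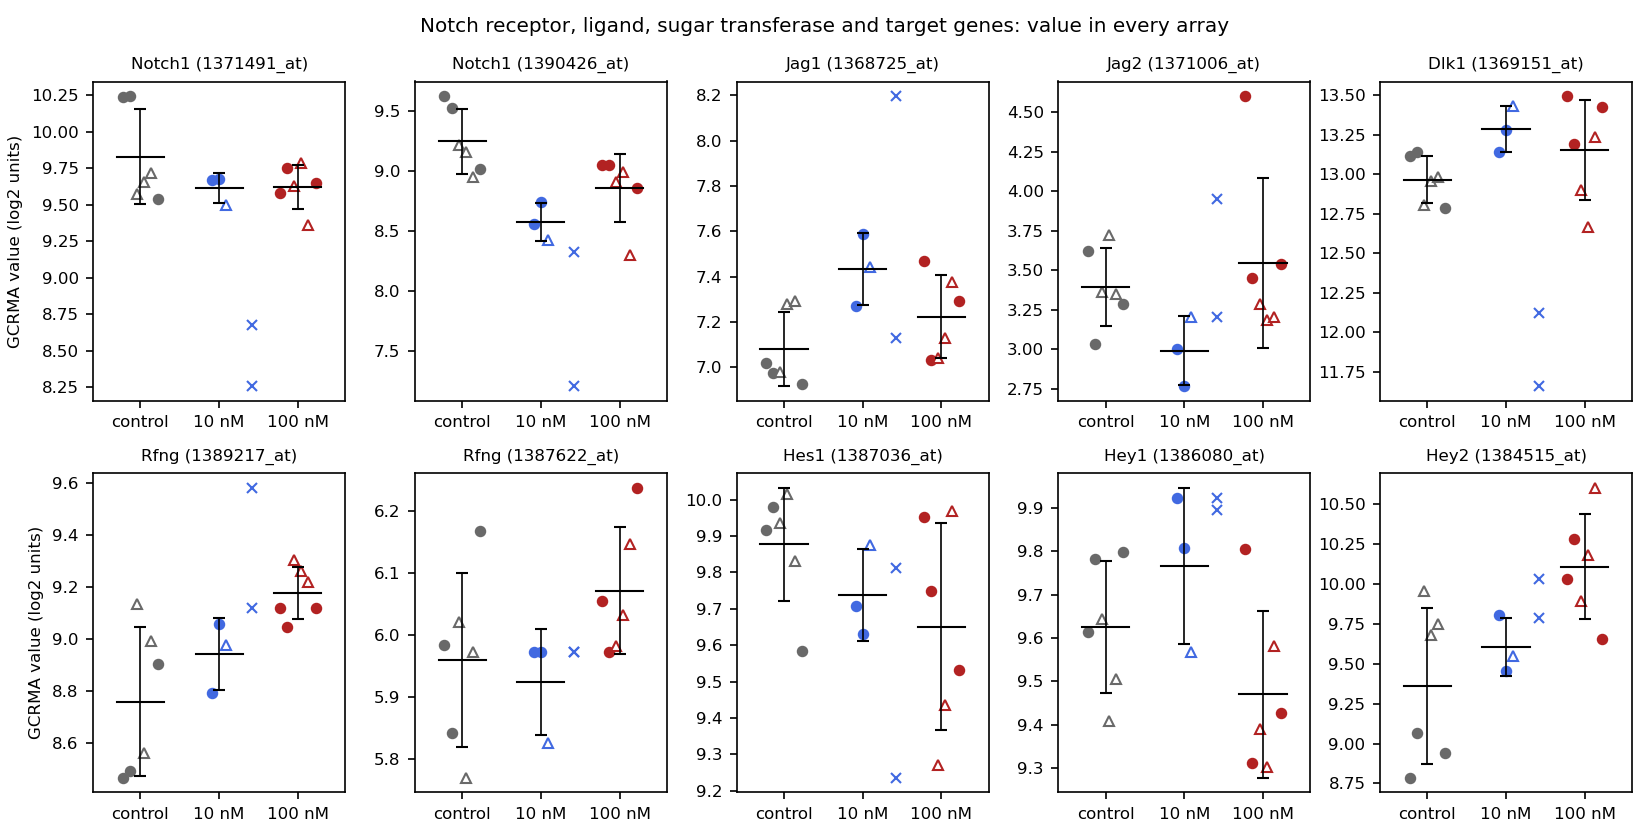
GCRMA value (log2 units, a separate axis range per panel) of the 10 tested member probe sets in each array, in control, 10 nM and 100 nM explants. Filled circles are replicates 1, 2 and 6, open triangles replicates 3, 4 and 5, crosses the 2 arrays the authors set aside, and lines the mean with its SD over the compared arrays; for Hey2, 4 of the 6 arrays at 100 nM lie above every control array.

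Of the receptors, Notch1 was the only one with a signal. Notch2 and Notch3 were at the floor of 2.11 in all 17 arrays, so these probe sets gave no measurement of either receptor. Notch1, the receptor with a known part in keeping muscle precursors undifferentiated, was read by 2 probe sets. Both had negative changes at both doses, and only 1 passed the test, at 10 nM. The probe sets were not tested against each other. On 1390426_at the arrays at 10 nM had 8.56, 8.74 and 8.42, and the control arrays ran from 8.95 through a median of 9.18 to 9.62. All 3 arrays at 10 nM were therefore below every control array, and 17% of tested probe sets had groups that do not overlap in this comparison. The value was lower by a log2 change of -0.67 ± 0.18 (SE; n = 3 and 6), or 1.59-fold, and passed the test (limma, adjusted p = 0.0244), as 5.7% of tested probe sets did in this direction. At 100 nM the same probe set ran from 8.30 through 8.95 to 9.04, overlapping the control range, with a change of -0.39 that did not pass (limma, adjusted p = 0.101). In an alternative fit with the replicate number as a block this change passed (limma, adjusted p = 0.0197). The call at 10 nM was lost without 10 nM replicate 1 (limma, adjusted p = 0.0839) and without 10 nM replicate 3 (limma, adjusted p = 0.127). It was also lost within replicates 1, 2 and 6 (limma, adjusted p = 0.116).

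The other Notch1 probe set, 1371491_at, has the higher mean and stood for the gene. It had 9.67, 9.67 and 9.49 at 10 nM, and in control it ran from 9.54 through 9.69 to 10.24. The control arrays of replicates 1 and 2 were well above the other 4, and the groups overlapped. Its change was -0.21 at 10 nM (limma, adjusted p = 0.457) and -0.20 at 100 nM (limma, adjusted p = 0.349). Both probe sets had their lowest value in an array the authors set aside, 8.25 on 1371491_at and 7.20 on 1390426_at.

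The ligands showed no difference that passed the test. Jag1, a membrane ligand of Notch receptors, had 7.27, 7.59 and 7.44 at 10 nM, and ran from 6.93 through 7.00 to 7.29 in control. In 2 of the 3 arrays at 10 nM it was above every control array. The change was 0.35 (95% confidence interval 0.10 to 0.61), with an unadjusted p of 0.0103 and an adjusted p of 0.0776 from limma. At 100 nM Jag1 ran from 7.03 through 7.21 to 7.47, and its change of 0.14 did not pass (limma, adjusted p = 0.378). The 2 arrays set aside had 8.20 and 7.13 for Jag1, the first above every compared array.

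Jag2, another ligand of the same family, was close to background, with 3.03 to 3.72 in control, 2.76 to 3.20 at 10 nM and 3.19 to 4.60 at 100 nM. A single array, 100 nM replicate 1, held the highest value. The change at 100 nM was 0.15 with it (limma, adjusted p = 0.704) and -0.06 in the fit without it. Dlk1, a secreted and membrane protein related to Notch ligands that lacks the usual receptor-binding domain, was far above the floor in every array. It ran from 12.79 through 12.97 to 13.14 in control, had 13.14, 13.28 and 13.43 at 10 nM, and ran from 12.67 through 13.21 to 13.49 at 100 nM. The groups overlapped, and its changes of 0.32 at 10 nM and 0.19 at 100 nM did not pass (limma, adjusted p = 0.242 and 0.389). In the 2 arrays set aside Dlk1 was at 12.12 and 11.66, below every compared array.

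Of the 2 probe sets of Rfng, 1 passed the test at 100 nM, with a higher value than in control. On 1389217_at the arrays at 100 nM ran from 9.04 through 9.17 to 9.30, and the control arrays from 8.46 through 8.73 to 9.14. In 3 of 6 arrays at 100 nM the value was above every control array, and the spread was narrower at 100 nM (SD 0.0992) than in control (SD 0.289). The change was 0.42 ± 0.11 (SE; n = 6 each), or 1.34-fold (limma, adjusted p = 0.0318). At 10 nM the values were 8.79, 9.06 and 8.98, inside the control range, with a change of 0.18 (limma, adjusted p = 0.471). The 2 arrays set aside had 9.58 and 9.12 on this probe set, the first above every compared array. The other probe set, 1387622_at, changed by 0.11 at 100 nM (limma, adjusted p = 0.346), and 5 of the 17 arrays held the same value of 5.97 on it.

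Among the target genes Hey2, whose promoter is shown above, rose at 100 nM, and Hes1 and Hey1 had negative changes that did not pass. Hey2 encodes a repressor known for its part in artery and heart development. It ran from 9.66 through 10.11 to 10.60 at 100 nM, and from 8.78 through 9.37 to 9.95 in control. In 4 of 6 arrays at 100 nM it was above every control array. The change was 0.75 ± 0.21 (SE; n = 6 each; 95% confidence interval 0.30 to 1.20), or 1.68-fold (limma, adjusted p = 0.0368). At 10 nM Hey2 had 9.81, 9.45 and 9.55, all inside the control range, and its change of 0.24 did not pass (limma, adjusted p = 0.617). Between 100 nM and 10 nM the difference was 0.50, with a confidence interval of -0.05 to 1.06 (limma, adjusted p = 0.464).

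Hes1, which shares the RBPJ core letters with Hey2, ran from 9.27 through 9.64 to 9.97 at 100 nM and from 9.58 through 9.93 to 10.02 in control. Its change of -0.23 had a confidence interval of -0.48 to 0.03 (limma, adjusted p = 0.258). Hey1, the closest relative of Hey2 in this set, ran from 9.41 through 9.63 to 9.80 in control, had 9.92, 9.81 and 9.57 at 10 nM, and ran from 9.30 through 9.41 to 9.81 at 100 nM. Its change at 100 nM against control was -0.16 (limma, adjusted p = 0.348). Against 10 nM, Hey1 at 100 nM was lower by a log2 change of -0.30, with an unadjusted p of 0.0287 and an adjusted p of 0.322 from limma.

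**Figure D2:**
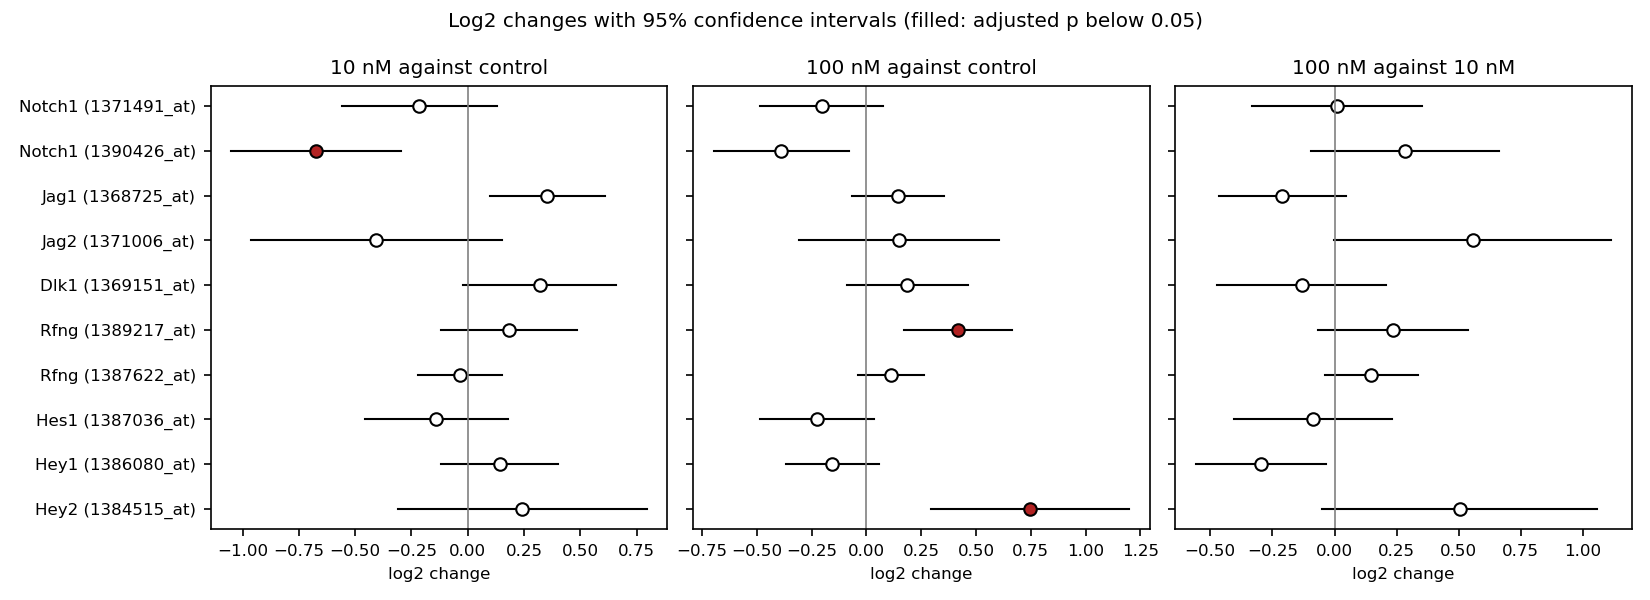
Log2 change of each tested member probe set in the 3 comparisons (horizontal axis), with 95% confidence intervals from limma as bars and filled points where the adjusted p is below 0.05. The filled points are Notch1 on 1390426_at at 10 nM, and Rfng on 1389217_at and Hey2 at 100 nM.

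Values were also compared within each side of the division of the replicates. Within replicates 1, 2 and 6 Hey2 averaged 9.99 at 100 nM and 8.93 in control, a difference of 1.06 with no overlap. Within replicates 3, 4 and 5 it averaged 10.23 at 100 nM and 9.79 in control, a difference of 0.43 with overlapping values. The test of the difference between these differences gave 0.63, with an unadjusted p of 0.0478 and an adjusted p of 0.351 from limma. The division was itself read from the values of these arrays, so these p values are given as a description only. For Rfng on 1389217_at the differences were 0.47 and 0.36, without overlap on either side. Neither gene passed the test in either set alone, as the adjusted p from limma was 0.0595 and 0.224 for Hey2 and 0.164 and 0.203 for Rfng. The fits differ, because that of replicates 1, 2 and 6 kept its 10 nM arrays and the other had none. Over all tested probe sets, 200 passed in the first set and 1691 in the second, so these adjusted p values are not directly comparable.

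**Figure D3:**
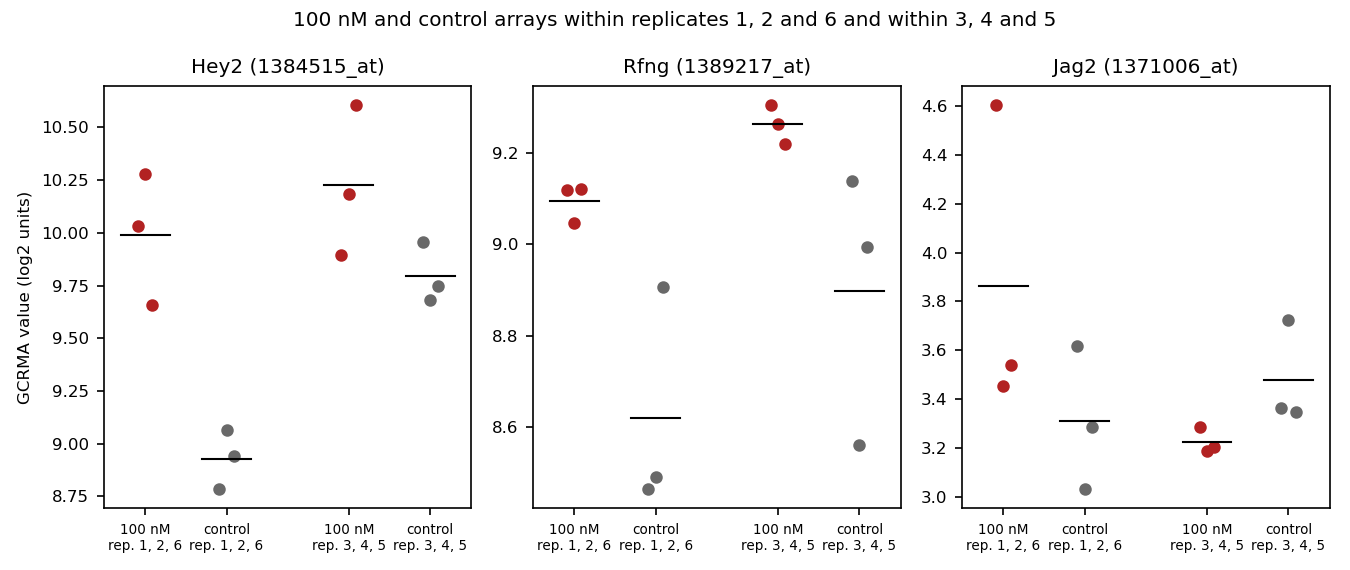
GCRMA value (log2 units) of Hey2, Rfng (1389217_at) and Jag2 in 100 nM and control arrays, within replicates 1, 2 and 6 and within replicates 3, 4 and 5; points are arrays and lines are means. The Hey2 means differ by 1.06 in the first set and 0.43 in the second.

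Both calls at 100 nM lay near the threshold. That of Hey2 was lost when control replicate 1, 2 or 6 or 100 nM replicate 2, 4 or 5 was left out, with adjusted p between 0.0204 and 0.0757 over the 15 fits in limma. That of Rfng was lost without control replicate 1, 2 or 4 or 100 nM replicate 3, 4, 5 or 6, with adjusted p between 0.0116 and 0.0737.

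Markers of other cells moved between the same groups. Of the 10 endothelial markers listed, 7 were tested, and their mean level was 6.55 to 6.86 in control, 6.80 to 7.12 at 10 nM and 6.87 to 7.53 at 100 nM. Kdr, the main receptor for vascular endothelial growth factor, rose by 0.94 and Cldn5, a tight junction protein of vessels, by 2.83 at 100 nM (limma, adjusted p = 0.000939 and 2.07e-05), and both also rose at 10 nM, by 0.78 and 1.60 (limma, adjusted p = 0.00984 and 0.00648). The other 5 did not pass at either dose, and 2 of them had negative changes at 100 nM, Emcn (-0.42; limma, adjusted p = 0.329) and Esam (-0.37; limma, adjusted p = 0.161). Of the rest of the list, Vwf was at the floor in every compared array, Tek did not pass the filter, and Cdh5 had no probe set. Tie1 averaged 2.30 at 100 nM and 2.22 in control, Pecam1 2.96 and 2.95, and Eng 7.88 and 7.70. The mean of the 7 tested erythroid markers was 5.49 to 8.13 at 100 nM and 7.78 to 10.25 in control. Of them, 6 passed as lower (limma), beside 3.98% of all genes. Of 6 tested macrophage and leukocyte markers 4 passed as lower (limma), and the mean of the 6 was 8.89 to 9.59 at 100 nM and 9.60 to 9.80 in control. None of the 9 mural and smooth muscle markers passed at 100 nM (limma; 2 at an unadjusted p under 0.05, beside 27.6% of all genes). At 10 nM their mean was 8.07 to 8.42, against 7.50 to 7.99 in control, with Myh11 higher by 2.65 and Tagln changed by -0.43 (limma, adjusted p = 0.0279 and 0.0299). Of the 6 mesenchyme markers, Thy1 rose by 0.89 at 10 nM and 1.34 at 100 nM (limma, adjusted p = 0.0284 and 0.000734), and Prrx1 changed by -1.17 at 10 nM (limma, adjusted p = 0.00874). Of the 6 tested skeletal muscle markers Myod1 alone passed at 100 nM (-0.32; limma, adjusted p = 0.0238), and of the 2 tested preadipocyte markers Fabp4 did (-1.28; limma, adjusted p = 0.00998). The part of these cells in the Hey2, Rfng and Notch1 results was not tested. For the tissue itself, the gubernaculum list had 2 tested genes of 5, neither of which passed, Esr1 was not tested because of its low values, and the Insl3 receptor gene Rxfp2 was not analysed here.

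Beyond the members, 46 other genes of the pathway were listed, 35 had a probe set and 30 were tested. At 100 nM against control none rose and 1 fell, Rbpj (limma; 8 of 30 genes at an unadjusted p under 0.05), beside 8.15% of all genes higher, 3.98% lower and 27.6% at an unadjusted p under 0.05. At 10 nM against control none passed (limma; 3 at an unadjusted p under 0.05), and none at 100 nM against 10 nM (limma; 0 at an unadjusted p under 0.05). Over all genes, 8.67% passed in the first of these comparisons and 0.778% in the second. At an unadjusted p under 0.05 in limma the shares were 21.7% and 10.0%. The median log2 change of the 30 was 0.06 at 100 nM and 0.06 at 10 nM.

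Rbpj, the DNA-binding partner of the cut receptor, had 3 probe sets. On 1392668_at the control arrays ran from 7.01 through 7.22 to 7.40, those at 10 nM had 6.69, 6.64 and 6.62, and those at 100 nM ran from 6.56 through 6.70 to 6.79. Every compared array with Insl3 was below every control array. The lowest value, 5.16, was in an array set aside. Of all tested probe sets, 4.96% had groups that do not overlap at 100 nM, and 17% at 10 nM. The change was -0.52 ± 0.07 at 100 nM (SE; limma, adjusted p = 0.000213) and -0.55 ± 0.08 at 10 nM (limma, adjusted p = 0.000873). Of the 18938 tested probe sets, 2065 passed at 100 nM and 2004 at 10 nM in either direction. As lower, 5.7% of probe sets passed at 10 nM, and 3.98% of genes, each by 1 probe set, passed at 100 nM.

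On 1381969_at, the probe set with the highest mean, Rbpj ran from 11.41 through 11.54 to 11.73 at 100 nM and from 11.69 through 11.80 to 11.88 in control. In 5 of 6 arrays at 100 nM it was below every control array. The change was -0.25 ± 0.06 (SE; limma, adjusted p = 0.0142), and at 10 nM it was -0.14 (limma, adjusted p = 0.256). With the mean of the probe sets of each gene in its place, Rbpj passed at 10 nM (-0.27; limma, adjusted p = 0.0115). Within replicates 1, 2 and 6 and within 3, 4 and 5 the call at 100 nM on 1381969_at was lost (limma, adjusted p = 0.0878 and 0.149). On 1379302_at the changes were -0.03 at 100 nM and -0.13 at 10 nM, and neither passed (limma, adjusted p = 0.846 and 0.489). The change thus differed in size between the 3 probe sets, whose positions on the gene were not analysed here.

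**Figure D4:**
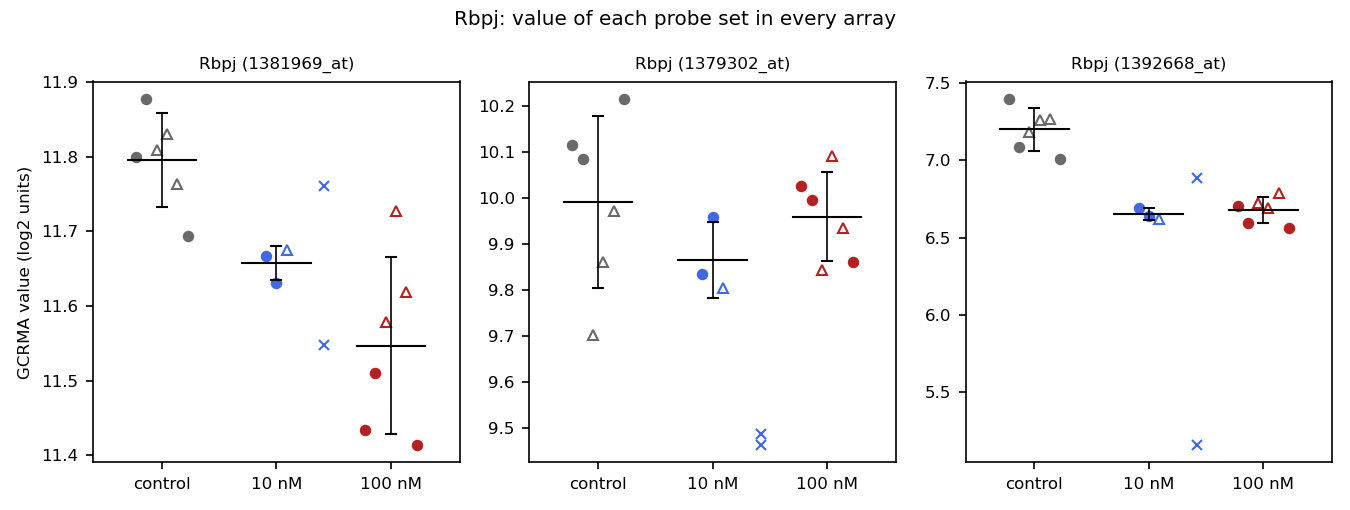
GCRMA value (log2 units, a separate axis range per panel) of the 3 Rbpj probe sets in control, 10 nM and 100 nM arrays; filled circles are replicates 1, 2 and 6, open triangles replicates 3, 4 and 5, crosses the arrays set aside, lines the mean and SD of the compared arrays. On 1392668_at all compared arrays with Insl3 lie below all control arrays.

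The remaining pathway genes did not pass the test. Mib2, Ncstn and Tle3 are named because their adjusted p at 100 nM was lowest among these, a choice made after their values were seen. Mib2, a ubiquitin ligase that acts on Notch ligands, averaged 8.68 at 100 nM and 8.29 in control, a change of 0.39 (limma, adjusted p = 0.0542). Ncstn, a subunit of the gamma-secretase that cuts the receptor, averaged 9.61 at 100 nM and 9.30 in control, a change of 0.31 (limma, adjusted p = 0.0684). Tle3, a co-repressor used by Hes proteins, changed by 0.36 (limma, adjusted p = 0.0768). The ligand gene Dll1 averaged 6.56 at 100 nM and 6.80 in control, a change of -0.24 (limma, adjusted p = 0.147). Heyl, the remaining Hey family gene, changed by 0.09 on 1391969_at, on which 11 of 17 arrays held the same value of 3.11. Notch4, Dll4, Lfng, Hes5 and Nrarp did not pass the filter on low values.

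**Figure D5:**
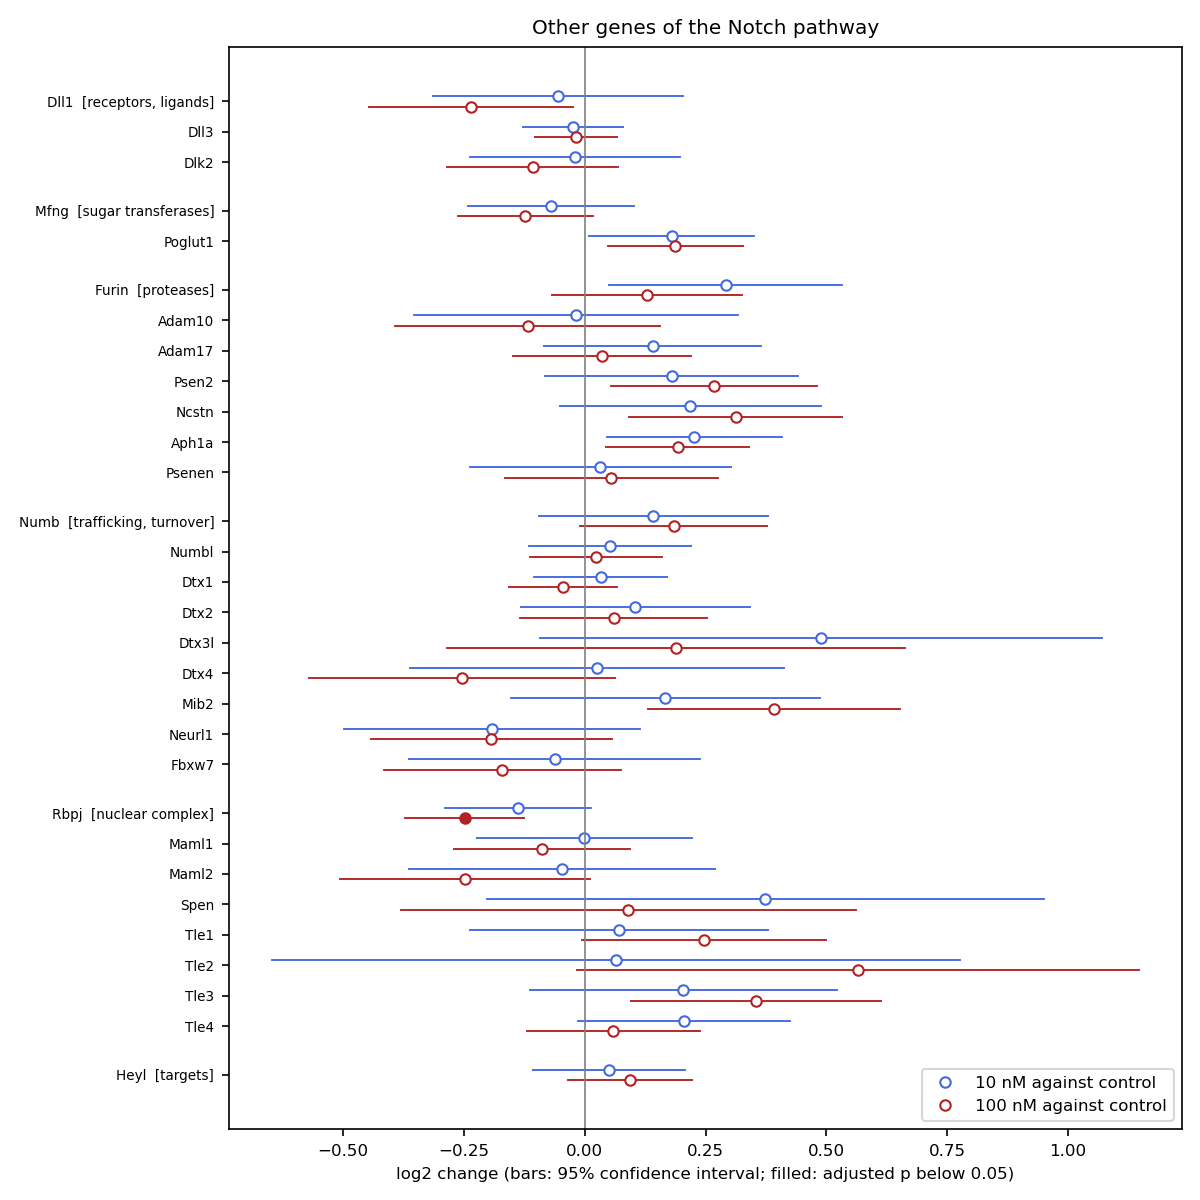
Log2 change (horizontal axis) of the 30 tested other genes of the Notch pathway at 10 nM and at 100 nM against control, with 95% confidence intervals from limma, grouped by role; the filled point has an adjusted p below 0.05. Rbpj at 100 nM, at -0.25, is the filled point.

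For the 3 probe sets of members that passed a test, the genes with the most similar values were found by Pearson correlation over the 15 compared arrays, among 14531 probe sets. These correlations share the group differences and the division of the replicates, and they are given as a description. Hey2 was most like Kazald1 (r = 0.93), Crym (r = 0.91) and Gask1b (r = 0.90). Rfng was most like Tff3 (r = 0.89), Dgat2 (r = 0.89) and Bckdhb (r = 0.87). Notch1 on 1390426_at was most like Pgpep1 (r = 0.95), Mef2a (r = 0.94) and Sin3a (r = 0.93). After group means were removed, r was 0.87 for Hey2 with Kazald1, 0.81 for Rfng with Tff3 and 0.89 for Notch1 with Pgpep1.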

How the data were processed

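RNA of gubernaculum explants was measured on Affymetrix expression arrays from 150 ng of total RNA, per the labels' protocols. The deposited values are log2 intensities that the authors made with GCRMA, per the submitters' processing notes; the log base was read from the range of the values. Genes come from the platform annotation, with symbols updated by gene ID to the GRCr8 gene table (20764 of 20832 single-gene probe sets matched; 436 probe sets with several genes were not named). Probe sets had to exceed the 40th percentile of all values (2.28) in at least 3 of the 15 compared arrays. The 3 groups were fitted together in limma 3.58.1 (R 4.3.3; lmFit, eBayes), with Benjamini-Hochberg adjustment over 18938 probe sets, and the code was tested on simulated data. A value within 0.001 of the lowest counted as at the floor. Named genes are the members with every probe set, the other pathway genes that passed a test, Dll1, Dll4, Notch4, Rbpj, Heyl, Nrarp and Hes5 whatever their result, and the 3 genes most like each called member probe set; Mib2, Ncstn and Tle3 were added after their values were seen, and genes below the filter are listed by name. The genes and lists were chosen with earlier results of these data known. Alternatives left out arrays, changed the filter, normalization, groups in the fit and probe set choice, and added replicate terms. Same-numbered arrays of 100 nM and control correlated at 0.00676 to 0.199 after group means were removed. The numbers were not taken as pairs. These low correlations do not show that the arrays are independent, since the division of the replicates ran through all 3 groups. The fit described here had no term for it, and some calls changed when a replicate term was added.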

Additional observations from a re-analysis of the deposited data

Results flagged for a closer look

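Among 32 groups of 6 arrays (16 probe sets), 5 values stood far from the rest of their group by Dixon's criterion. Chance meets it in about 1 in 20 groups if values are independent and not tied. The array of 100 nM replicate 1 was flagged for both Jag2 and Heyl. Jag2 in 100 nM replicate 1 was at 4.60, with the next array at 3.54. Notch1 on 1390426_at in 100 nM replicate 5 was at 8.30, with the next at 8.86. Heyl, a further Hey family gene close to the floor, was at 2.60 on 1390882_at in 100 nM replicate 1 (next 2.24) and at 2.99 in control replicate 1 (next 2.31), and at 3.00 on 1391969_at in control replicate 2 (next 3.11). On 1391969_at, 11 of 17 arrays held the same value, so even a small departure is flagged there. In the arrays the authors set aside, Hey1 was above every control array, the lower of the 2 being at 9.90 and the highest control array at 9.80.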

How the results depend on the processing

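The count of 2 member genes at 100 nM against control became 1 with all 17 arrays and with quantile normalization repeated, and 0 with no filter, with only the 2 groups in the fit, and within replicates 1, 2 and 6 or 3, 4 and 5; it ranged from 0 to 2 when each replicate was left out. The other pathway genes at 100 nM, 1 in the fit as described, were 2 with quantile normalization or a stricter filter, 0 within replicates 1, 2 and 6, 3 with the division of the replicates as a term, and 1 to 4 with a replicate left out; at 10 nM, 0 became 1 with all 17 arrays, and 0 to 1 with a replicate left out. Over all probe sets, 2065 at 100 nM against control became 994 with all 17 arrays and 200 within replicates 1, 2 and 6; leaving out replicates gave 1442 to 2616. The 2004 at 10 nM against control became 559 within replicates 1, 2 and 6, and 1020 to 2495 with a replicate left out. The 271 at 100 nM against 10 nM became 22 with no filter, 3 with only the 2 groups, 429 with the replicate block, 134 within replicates 1, 2 and 6 and 531 with the division as a term, and 3 to 619 with a replicate left out. The cause of these changes was not tested.

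With no filter the adjusted p from limma was 0.0831 for Hey2 and 0.0652 for Rfng at 100 nM, and 0.0555 for Notch1 on 1390426_at at 10 nM; with all 17 arrays it was 0.0890 for Rfng. With the replicate number as a block, Notch1 on 1390426_at passed at 100 nM (-0.39, limma adjusted p = 0.0197); the member counts were 2, 0 and 0 with the block too. Rbpj on 1392668_at lost its call at 100 nM with all 17 arrays (limma adjusted p = 0.187) and within replicates 1, 2 and 6 (0.0869). At 100 nM it passed in all 15 fits that left out a replicate (0.000101 to 0.000887). At 10 nM it lost its call within replicates 1, 2 and 6 (limma adjusted p = 0.113), as did Notch1 on 1390426_at (0.116). Values near the floor, as for Jag2 and Heyl, limit what those probe sets can show.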
